A study of Mus musculus with 31 samples.

Results

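Whole AB1-mCherry tumours from the pleural cavity were compared with whole AB1-mCherry tumours from under the skin, in 11 of the 31 RNA sequencing libraries of the series. AB1-mCherry is a murine mesothelioma line that carries the red fluorescent protein mCherry, and its brightest 5% of cells had been sorted and cultured before use. All hosts were untreated female BALB/c mice of 12 weeks, and tumours were collected on day 10. The pleural group held 6 libraries (replicates 1, 2, 3, 4, 5 and 7 by the labels) and the subcutaneous group 5 (replicates 1 to 5), each labelled as a separate mouse. Replicates carry the mouse numbers of the labels, which for some peritoneal tumours differ from the numbers in the library names. Beside them the series held 5 whole peritoneal tumours and 15 libraries of sorted cancer cells, 5 for each site. The libraries were chosen by their labelled site, and the genes compared were those with a value of at least 1 TPM, the relative unit of transcript abundance, in at least 5 of the 16 whole-tumour libraries. A whole tumour holds cancer cells together with host stroma, vessels, leukocytes and any tissue cut out with it, and the model is a single transplanted cell line at an early time.

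Mesothelioma arises from the mesothelium, the flat epithelium that lines the pleural and peritoneal cavities. Mesothelial cells keep transcription factors of their embryonic origin, such as Wt1 and the Gata factors, and handle retinoids. Tumours under the skin grow in loose connective tissue with dermal fibroblasts, mast cells and the thin panniculus muscle. In fibroblasts of such tissue, collagens and matricellular proteins make the matrix, and a class of activated fibroblasts is marked by the surface proteins Lrrc15, Fap and Thy1.

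Total depth is unknown, because the deposited values are TPM. Between 14148 and 14880 genes reached 1 TPM in a whole-tumour library, and transcripts of the mitochondrial genome made up 4.5% to 6.45% of TPM in pleural and 4.56% to 6.10% in subcutaneous tumours. Muscle transcripts set some libraries apart. Pleural replicate 3 held cardiac transcripts: Nppa, the atrial natriuretic peptide, measured 3376 TPM there and at most 0.255 TPM in the other pleural libraries, and the cardiac myosin heavy chain Myh6 measured 384 TPM. Pleural replicate 5 held skeletal muscle transcripts, with Acta1, the skeletal muscle actin, at 248 TPM. In the subcutaneous tumours Acta1 measured 191, 411, 19, 144 and 147 TPM in replicates 1 to 5, and in the pleural tumours 0.153, 0.179, 16.9, 0.108, 248 and 0.159 TPM in replicates 1, 2, 3, 4, 5 and 7. Pleural replicates 1, 2, 3, 4 and 7 thus lay below every subcutaneous library for this gene, replicate 3 only narrowly, while replicate 5 lay among them. Ckm, a muscle creatine kinase, measured 90.5 TPM in pleural replicate 3 and 101 TPM in replicate 5, against 11.3 to 199 TPM in subcutaneous tumours. Sftpc, the surfactant protein of alveolar cells, was at 0 TPM in all 6 pleural libraries. The results below were also computed without pleural replicates 3 and 5.

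**Figure D1:**
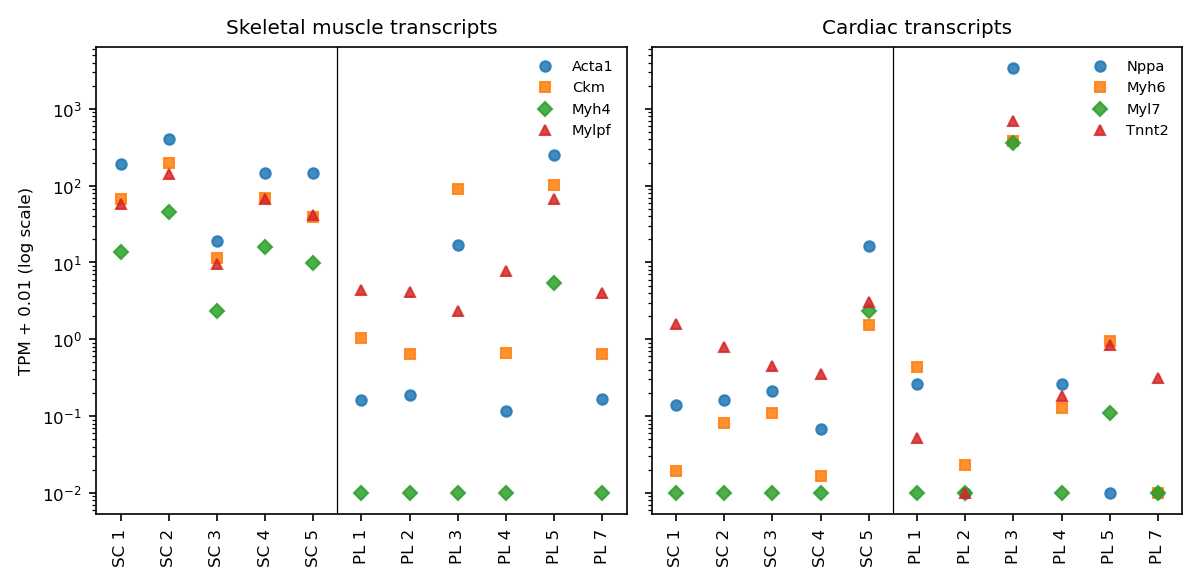
Skeletal muscle (left) and cardiac (right) transcripts in each subcutaneous (SC) and pleural (PL) library, as TPM + 0.01 on a log axis. Skeletal muscle transcripts were present in all 5 subcutaneous libraries and in pleural replicate 5, where Acta1 reached 248 TPM. Pleural replicate 3 held some of them, with Ckm at 90.5 TPM, Acta1 at 16.9 TPM and Myh4 at 0 TPM. Cardiac transcripts stood out in pleural replicate 3, where Nppa reached 3376 TPM.

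Of 15054 genes tested, 1927 (12.8%) differed between pleural and subcutaneous tumours at an adjusted p below 0.05, here termed called. The test was limma on log2(TPM + 1) with Benjamini-Hochberg adjustment, and all fold changes below are differences of log2(TPM + 1), pleural minus subcutaneous, which understate the change of genes at low TPM. Values after ± are SDs over the 6 pleural or 5 subcutaneous libraries. Higher in pleural tumours were 1415 genes (9.4%) and lower were 512 (3.4%). Most changes were small: 187 called genes reached 2-fold, 81 of them higher and 106 lower. The values of the 2 groups did not overlap for 1168 genes (7.76%), of which 967 were also called. The share of calls that were higher depended on scaling: it was 73.4% on TPM, 45.9% after median-of-ratios scaling (727 higher and 856 lower) and 48.4% after quantile normalization (674 and 718), while the median fold change of all genes was 0.07 on TPM and 0.0013 after median-of-ratios scaling. Single libraries mattered: 785 genes were called without subcutaneous replicate 2 (525 higher and 260 lower), 1045 without pleural replicate 2 (696 and 349) and 1262 without pleural replicate 4 (885 and 377). Against peritoneal tumours, the other serosal site, 8 genes (0.0531%) were called in pleural tumours. That count was 33 when pleural replicate 3 was left out, 4 when the peritoneal tumour 4 was, and 3 when the subcutaneous tumour 4 was. It was 1 on leaving out pleural replicate 1 or 2, the peritoneal tumour 2 or the subcutaneous tumour 3, and 0 on leaving out pleural replicate 4 or 5, the peritoneal tumour 1, 3 or 7 or the subcutaneous tumour 5.

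**Figure D2:**
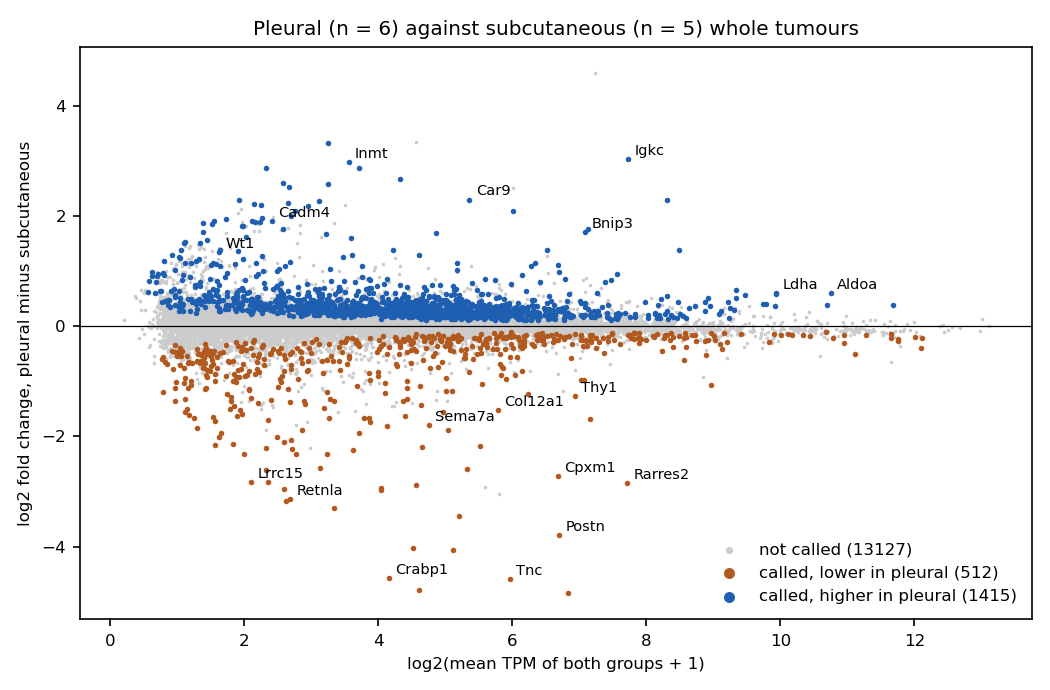
Log2 fold change (pleural minus subcutaneous, on log2(TPM + 1)) of each of the 15054 genes tested against the log2 of its mean TPM + 1 over both groups. Of the 1415 genes called higher (blue) 81 reach 2-fold, against 106 of the 512 called lower (brown) (not called in grey).

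Lrrc15 and Thy1, surface proteins of fibroblasts, and the secreted proteins Cpxm1 and Fibin fell in pleural tumours. Lrrc15, a leucine-rich repeat membrane protein of activated fibroblasts, measured 7.05, 6.75, 6.02, 6.67 and 6.28 TPM in subcutaneous replicates 1 to 5. In the 6 pleural tumours its lowest, median and highest values were 0.0195, 0.0654 and 0.124 TPM. The groups were far apart, and Lrrc15 had the smallest adjusted p of all genes tested (-2.82, SE 0.07, adjusted p = 9.06e-13). In peritoneal tumours its mean was 0.0309 TPM, also below every subcutaneous value.

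Cpxm1, a secreted protein of the carboxypeptidase family, measured 94.1, 197, 129.8, 239 and 225 TPM in the subcutaneous tumours and 12, 25.4 and 45.1 TPM (lowest, median, highest) in the pleural ones (-2.72, SE 0.32, adjusted p = 0.000124). Thy1, a surface glycoprotein of fibroblasts and T cells, measured 139, 189, 164, 179 and 179 TPM in subcutaneous and 43.7, 72.6 and 99.7 TPM in pleural tumours (-1.27, SE 0.18, adjusted p = 0.000779). For both genes every pleural value lay below every subcutaneous one. Fibin, a secreted protein named for its role in fin bud initiation, measured 13.9±3.34 TPM (SD, n = 5) in subcutaneous and 1.71±1.38 TPM (SD, n = 6) in pleural tumours, with an adjusted p of 0.000149. Most other fibroblast genes were not called. Of 21 tested members of the fibroblast list, 3 fell (Lrrc15, Thy1 and the surface protease Fap) and 1 rose (Mgp, matrix Gla protein), against 3.4% and 9.4% of all genes, with a median fold change of -0.20 beside 0.07 for all genes. After median-of-ratios scaling 5 fell. Without pleural replicate 3, which held cardiac RNA, 5 fell and 3 rose, and without pleural replicate 1 or subcutaneous replicate 2, 3, 4 or 5 none was called higher. Pdgfra, the platelet-derived growth factor receptor of most fibroblasts, averaged 19.3 TPM in pleural and 18.8 TPM in subcutaneous tumours. In bulk tumours, fewer cells of a type and less RNA per cell cannot be told apart.

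Collagens differed gene by gene. Col12a1, a collagen that sits on the surface of collagen fibrils, measured 92.1, 82.8, 61.4, 78.9 and 87.4 TPM in subcutaneous replicates 1 to 5 and 20.5, 28.3 and 33.6 TPM (lowest, median, highest) in pleural tumours (-1.51, SE 0.13, adjusted p = 6.43e-06). Col23a1, a transmembrane collagen, measured 8.27, 7.5, 5.76, 9.88 and 8.7 TPM in subcutaneous and 0.103, 0.238 and 0.446 TPM in pleural tumours (-2.83, SE 0.16, adjusted p = 2.38e-08). Col5a3, a minor fibrillar chain of collagen V, measured 30.7, 56.2, 37.9, 53.7 and 50.6 TPM in subcutaneous and 10.5, 15.2 and 18.1 TPM in pleural tumours (-1.55, SE 0.19, adjusted p = 0.000215). None of these groups overlapped, although subcutaneous replicates 1 and 3 were lower for Col5a3 than the other 3. The bulk collagen chain Col1a1 averaged 687±144 TPM in subcutaneous and 492±227 TPM in pleural tumours and was not called (adjusted p = 0.133); without pleural replicate 3 its adjusted p was 0.0283. Over the collagens outside the fibrillar class, 6 of 21 fell (Col23a1, Col12a1, Col7a1, Col6a3, Col28a1 and Col18a1) and 2 rose (Col4a5 and Col9a3). The shares over all genes were 3.4% lower and 9.4% higher. The count of 2 was 1 without pleural replicate 2 or 4 or subcutaneous replicate 1, 4 or 5, and 0 without subcutaneous replicate 2. Of 8 fibrillar chains, Col5a3 fell and Col11a1 rose; without pleural replicate 3, 2 fell.

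Other matrix proteins moved in both directions. Among 19 matricellular proteins, which bind matrix and cell receptors, 4 fell (Tnc, Postn, Tnn and Thbs4) and 2 rose (Fn1 and Ccn2). Beside the counts of this paragraph, 3.4% of all genes fell and 9.4% rose. Fn1, fibronectin, averaged 981±109.7 TPM in pleural and 733±36.3 TPM in subcutaneous tumours (0.41, SE 0.09, adjusted p = 0.00897). Tnn, tenascin N, averaged 0.054±0.0231 TPM in pleural and 2.31±1.36 TPM in subcutaneous tumours (-1.55, adjusted p = 0.00032). Without pleural replicate 3 the matricellular genes that fell numbered 7, without pleural replicates 3 and 5 they numbered 8, and without subcutaneous replicate 2 the only one called higher was Fn1. Sulf1, which removes sulfate from heparan sulfate, fell from 20.5±4.88 TPM to 6.5±4.23 TPM (adjusted p = 0.00261), and the collagenase Mmp13 from 2.1±0.862 TPM to 0.391±0.109 TPM (adjusted p = 0.000717). The count of 5 lower among 15 metalloproteinases and their inhibitors was not stable to single libraries: it was 8 without pleural replicate 3, 3 without pleural replicate 1, 2 without subcutaneous replicate 3 or 4, and 1 without pleural replicate 2, 4 or 7 or subcutaneous replicate 2 or 5. Of 14 enzymes that hydroxylate or crosslink collagen chains 4 rose (Plod2, P4ha1, P3h1 and Plod1) and P4ha3 fell. The call of P4ha3 was lost in most fits without 1 library, and without pleural replicate 3 the genes that fell numbered 4. Plod2, a lysyl hydroxylase, measured 37.9, 48.5 and 68.7 TPM (lowest, median, highest) in pleural tumours and 21.1, 19.8, 23.4, 18.1 and 23.7 TPM in subcutaneous ones (1.15, SE 0.14, adjusted p = 0.000225). P4ha1, a prolyl hydroxylase subunit, averaged 108±22.2 TPM in pleural and 60.9±9.94 TPM in subcutaneous tumours (0.80, SE 0.15, adjusted p = 0.00543). Every pleural value of both genes lay above every subcutaneous value.

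Signalling and surface genes were among the large decreases. Sema7a, a membrane-anchored semaphorin that binds integrins, measured 35.2, 37.8, 46.4, 44.1 and 40.6 TPM in subcutaneous replicates 1 to 5 and 9.65, 10.8 and 12.8 TPM (lowest, median, highest) in pleural tumours (-1.79, SE 0.08, adjusted p = 1.28e-09). The groups lay far apart, with little spread within the pleural group. It was the only one of 14 semaphorins tested that was called. Rarres2, which encodes the leukocyte attractant chemerin, measured 218, 477, 325, 346 and 465 TPM in subcutaneous and 30.4, 46.9 and 94.1 TPM in pleural tumours (-2.85, SE 0.24, adjusted p = 2.8e-06). Pleural replicate 2 was the highest of the pleural tumours and still under the lowest subcutaneous one. Sdc1, the heparan sulfate proteoglycan syndecan 1, averaged 50.5±5.37 TPM in pleural and 89.6±9.01 TPM in subcutaneous tumours (-0.81, adjusted p = 1.33e-05). Igfbp3, a binding protein of insulin-like growth factors, averaged 39.5±6.05 TPM and 78.8±21.9 TPM (-0.96, adjusted p = 0.00365). Tfpi2, a Kunitz-type protease inhibitor, averaged 2.17±0.735 TPM and 14.7±3.26 TPM (-2.31, adjusted p = 3.42e-07). Il13ra2, the decoy receptor of interleukin 13, averaged 0.928±0.364 TPM and 4.93±1.91 TPM (-1.59, adjusted p = 5.96e-05). All 4 fell in pleural tumours.

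Genes of the mesothelium and of its embryonic origin were higher in pleural tumours. Wt1, the zinc finger factor of mesothelium and of the mesothelioma literature, measured 2.05, 3.21 and 5.61 TPM (lowest, median, highest) in pleural tumours. In the subcutaneous tumours it measured 0.446, 0.62, 0.723, 0.638 and 1.21 TPM in replicates 1 to 5, all under the lowest pleural value (1.34, SE 0.17, adjusted p = 0.000247). Gata4, a zinc finger factor of visceral mesoderm, measured 14.1, 18.6 and 23.3 TPM in pleural and 13.6, 8.42, 10.7, 11.2 and 10.2 TPM in subcutaneous tumours (0.74, SE 0.14, adjusted p = 0.00527). The groups of Gata4 lay next to each other, the lowest pleural tumour just above the highest subcutaneous one. Lrrn4, a leucine-rich repeat protein of mesothelial cells, averaged 1.47±0.78 TPM in pleural and 0.0451±0.0191 TPM in subcutaneous tumours (adjusted p = 0.00211). Upk3b, a mesothelial uroplakin, averaged 1.1±0.811 TPM in pleural tumours and was listed at 0 in subcutaneous replicates 2 to 5. Of 24 tested members of the mesothelium list, 10 rose (Wt1, Ildr2, Lrrn4, Gata4, Nkain4, Upk3b, Gata6, Rspo1, Aldh1a2 and Upk1b) and 2 fell (Sulf1 and podoplanin, Pdpn). The list's median fold change was 0.63, beside 0.07 for all genes, of which 9.4% rose and 3.4% fell. The counts of 10 and 2 stayed within 1.5 times in every fit that left out 1 library. With a minimum of 5 TPM, which most of the 10 do not reach, 2 rose. Upk3b, Lrrn4 and Nkain4 stayed below 1 TPM in every subcutaneous tumour, so they passed the filter only through pleural and peritoneal tumours. The count of 10 and the list's median thus depend partly on that filter. Msln, mesothelin, averaged 235±49.7 TPM in pleural and 208±19.5 TPM in subcutaneous tumours and was not called (adjusted p = 0.455); without pleural replicates 3 and 5 its adjusted p was 0.0125. Cancer cells and host mesothelium both can express these genes, and the part of each in the difference was not tested.

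Transcription factors that pattern the embryonic mesoderm moved in both directions. Of 19 tested, 4 rose (Wt1, Gata4, Gata6 and Isl1) and 4 fell (Irx1, Irx2, Meox2 and Tbx15). The Iroquois factor Irx2 measured 1.58, 2.81, 1.57, 2.48 and 2.88 TPM in subcutaneous replicates 1 to 5 and 0, 0.105 and 0.521 TPM (lowest, median, highest) in pleural tumours (-1.50, SE 0.14, adjusted p = 7.2e-06), and its neighbour in the family Irx1 fell too (-1.20, adjusted p = 6.52e-06). The groups of neither gene overlapped. After median-of-ratios scaling 3 rose and 6 fell. Of 30 Hox genes, which record position along the body, 3 rose (Hoxa3, Hoxb4 and Hoxa9) and Hoxc8 fell, shares close to the 9.4% and 3.4% of all genes. The 3 became 1 after median-of-ratios or quantile scaling and without pleural replicate 1 or 2 or subcutaneous replicate 2, 4 or 5, and Hoxc8 was lost without pleural replicate 4 or 5 or subcutaneous replicate 2, 4 or 5. Myrf, a membrane-bound transcription factor, averaged 3.66±1.45 TPM in pleural and 0.192±0.0482 TPM in subcutaneous tumours (1.92, adjusted p = 6.71e-06).

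**Figure D3:**
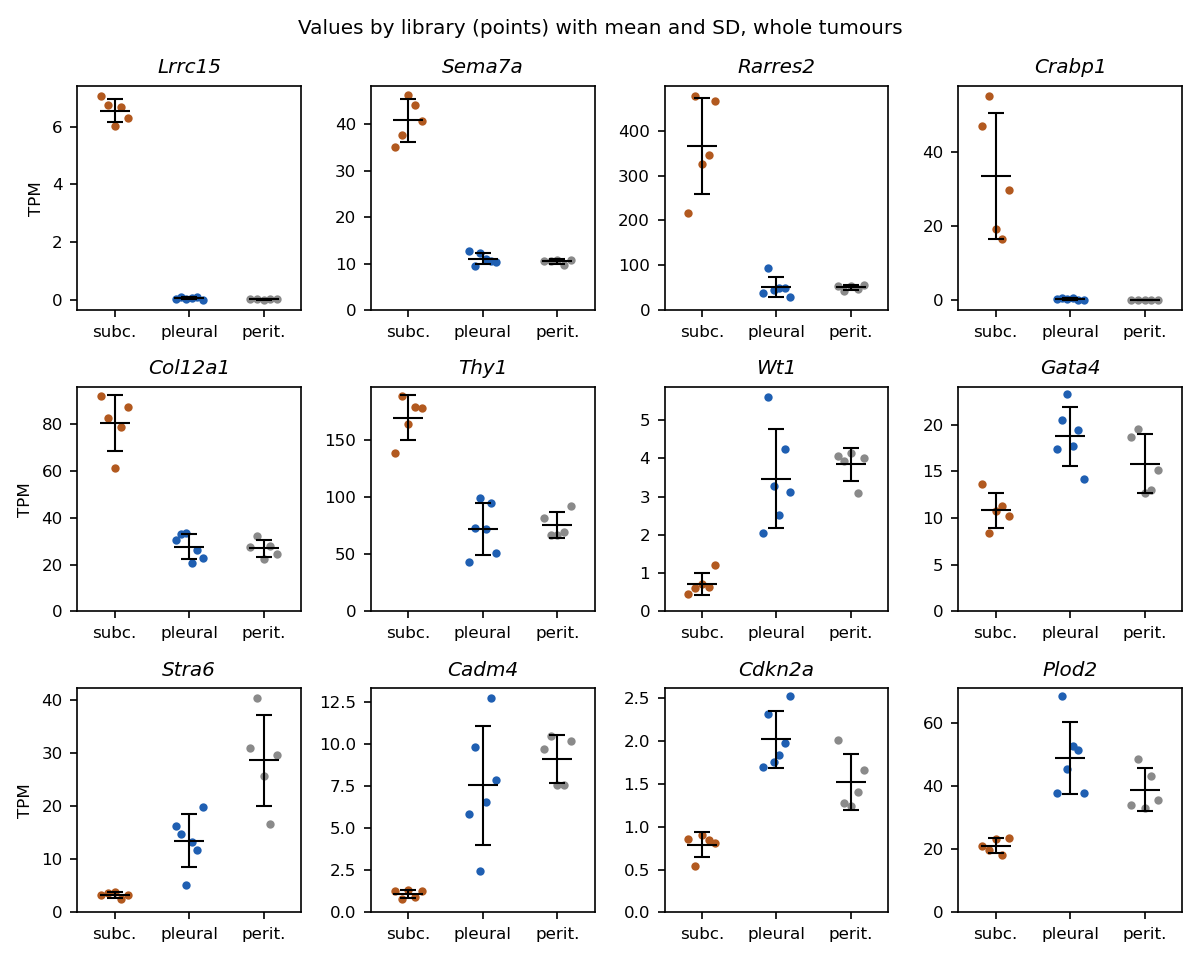
TPM of 12 genes in each subcutaneous (n = 5), pleural (n = 6) and peritoneal (n = 5) whole tumour, with the mean (long bar) and SD (short bars) of each group. In every panel the pleural and subcutaneous points do not overlap, and the peritoneal mean lies nearer to the pleural than to the subcutaneous mean.

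Retinoid genes changed at several steps of the pathway. Stra6, the membrane receptor that takes up retinol, measured 5.12, 14 and 19.8 TPM (lowest, median, highest) in pleural and 3.21, 3.57, 3.8, 2.53 and 3.29 TPM in subcutaneous tumours (1.67, SE 0.26, adjusted p = 0.00132). Its lowest pleural value still lay above every subcutaneous one, and the peritoneal mean was higher again at 28.6 TPM. Rarb, a retinoic acid receptor and itself a retinoic acid target, averaged 15.1±4.33 TPM in pleural and 8.03±1.3 TPM in subcutaneous tumours (0.81, adjusted p = 0.00543). Crabp1, which binds retinoic acid in the cytoplasm, measured 46.8, 55, 19.3, 16.5 and 29.7 TPM in subcutaneous and 0.055, 0.315 and 0.609 TPM in pleural tumours (-4.57, SE 0.25, adjusted p = 1.74e-08). The subcutaneous tumours spread widely for Crabp1, and none came near the pleural range. Over 16 tested members 4 rose (Stra6, Rarb, Aldh1a2, which makes retinoic acid, and Dhrs3, which reduces retinal) and 3 fell (Crabp1, Rarres2 and Rarres1). Among all genes tested 9.4% rose and 3.4% fell. The count of 4 was 2 without pleural replicate 2, without pleural replicates 3 and 5 or without subcutaneous replicate 3 or 4.

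Secreted regulators of growth also differed. Wnt4, a ligand, averaged 1.74±0.914 TPM in pleural and 0.0653±0.0359 TPM in subcutaneous tumours (adjusted p = 0.000992), and the Wnt antagonist Sfrp2 averaged 4.86±3.91 TPM and 19.5±7.67 TPM (adjusted p = 0.00543). Of 18 Wnt genes 4 rose (Wnt4, Frzb, Nkd1 and Rspo1) and 2 fell (Sfrp2 and Wnt10a). Frzb reached 65.9 TPM in pleural replicate 3, the library with cardiac RNA, and at most 6.32 TPM in the other pleural tumours. Gdf6, a bone morphogenetic protein, averaged 2.08±1.47 TPM in pleural and 0.0936±0.0598 TPM in subcutaneous tumours (adjusted p = 0.00192), and Bmper, which binds these proteins outside the cell, 6.7±5.73 TPM and 0.723±0.324 TPM (adjusted p = 0.00414). Tgfb1, the main TGF-beta ligand of most tissues, fell slightly from 79.8±5.58 TPM to 62.5±7.54 TPM (-0.35, adjusted p = 0.0127). Of 27 tested genes of the TGF-beta and BMP family 4 rose (Gdf6, Fstl3, Tgfb3 and Bmp4), beside 9.4% of all genes. The 4 became 2 without subcutaneous replicate 2.

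Hypoxia-inducible factors bind a short core motif, ACGTG, often close to the start sites of glycolytic and other oxygen-sensitive genes, and both kinds of gene were higher in pleural tumours. The 120 bases before the start site are shown for 7 of these genes that were called higher, chosen to show promoters with and without that core. They come from RefSeq (mouse build GRCm38.p6, which is not the build of the deposited values), each 5′ to 3′ on its gene's strand, with ACGTG or its reverse complement CACGT in capitals. The stretches are at chr4:43506906-43507025 (plus strand) for Car9, a surface carbonic anhydrase, chr7:138909507-138909626 (minus) for Bnip3, a mitophagy receptor, chr7:46845684-46845803 (plus) for Ldha, lactate dehydrogenase A, and chr10:59323176-59323295 (plus) for P4ha1. Those of Slc2a1, the glucose transporter GLUT1, of Egln1, an oxygen-sensing prolyl hydroxylase, and of Pfkl, the liver-type phosphofructokinase, are at chr4:119108625-119108744 (plus), chr8:124949255-124949374 (minus) and chr10:78009808-78009927 (minus).
Car9: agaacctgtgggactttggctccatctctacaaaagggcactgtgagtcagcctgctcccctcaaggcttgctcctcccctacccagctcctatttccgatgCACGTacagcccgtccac
Bnip3: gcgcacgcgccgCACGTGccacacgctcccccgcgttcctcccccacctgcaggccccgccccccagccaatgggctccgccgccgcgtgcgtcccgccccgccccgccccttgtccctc
Ldha: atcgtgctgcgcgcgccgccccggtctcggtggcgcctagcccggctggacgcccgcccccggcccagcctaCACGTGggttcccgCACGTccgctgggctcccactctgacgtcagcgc
P4ha1: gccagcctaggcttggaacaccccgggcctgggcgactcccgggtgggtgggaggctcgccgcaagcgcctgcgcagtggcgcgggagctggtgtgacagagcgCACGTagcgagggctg
Slc2a1: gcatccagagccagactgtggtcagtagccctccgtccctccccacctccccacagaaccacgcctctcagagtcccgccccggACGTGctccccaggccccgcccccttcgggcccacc
Egln1: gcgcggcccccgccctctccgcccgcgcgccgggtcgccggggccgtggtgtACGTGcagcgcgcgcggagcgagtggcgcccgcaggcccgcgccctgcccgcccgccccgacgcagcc
Pfkl: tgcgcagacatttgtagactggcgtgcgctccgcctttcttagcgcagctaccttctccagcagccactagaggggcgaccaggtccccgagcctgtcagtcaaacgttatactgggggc
In Bnip3 the 2 matches overlap on opposite strands, as do those in the CACGTG of Ldha. The Pfkl stretch holds neither ACGTG nor CACGT. The call of Slc2a1 was lost in 11 of 28 alternative runs. Other forms of the core motif were not searched for. Windows of 300 bases, from 250 before the start to 50 after, were searched on both strands. Ldha has another start site, not shown, whose window held neither sequence. Of the 48 genes in the hypoxia and glycolysis lists 40 were matched by symbol, and 27 of these (67.5%) held the core in at least 1 window, against 21.8% of all 27025 genes with a window and 28.8% of the 10549 tested genes that were matched. Within the lists 18 of 29 genes called higher held it (62.1%), and 9 of 11 not called (81.8%).

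Of 32 genes of the hypoxia response 20 rose in pleural tumours (9.4% over all genes), with a median fold change of 0.63. Of the 20, 10 had groups that did not overlap, beside 967 of all 1927 genes called. Bnip3 measured 116, 184 and 317 TPM (lowest, median, highest) in pleural and 40.5, 60.6, 112, 29.2 and 80.9 TPM in subcutaneous tumours (1.71, SE 0.35, adjusted p = 0.00844). Subcutaneous replicate 3 came close to the lowest pleural tumour, and both groups spread widely. Narf averaged 11.9±1.22 TPM and 7.27±1.01 TPM (0.65, adjusted p = 0.000992), and Bnip3l, a second mitophagy receptor, 214±46.5 TPM and 119.7±15.6 TPM (0.81, adjusted p = 0.00416). The 20 became 13 without pleural replicate 2 or 4 or without subcutaneous replicate 1 or 2, 16 after median-of-ratios or quantile scaling and 12 with no filter on low TPM. Without pleural replicates 3 and 5, 18 rose and 2 fell. The collagen hydroxylases P4ha1 and Plod2, described above with the collagens, belong to this list as well. Of 18 glycolytic enzymes 13 rose, with a median fold change of 0.49, and 10 after median-of-ratios scaling. Aldoa, aldolase A, averaged 2088±368 TPM in pleural and 1367±212 TPM in subcutaneous tumours (0.61, adjusted p = 0.0103). Of 26 endothelial genes 4 fell (Cldn5, Sox18, Pecam1 and Plvap) and Apln rose, beside 3.4% and 9.4% of all genes. That count of 4 was 11 without pleural replicate 3, 2 without pleural replicate 1, 2, 4 or 7 or subcutaneous replicate 4 or 5, and 1 without subcutaneous replicate 2, and Apln was lost without pleural replicate 2 or 4 or subcutaneous replicate 1, 2, 4 or 5. The part of vessels in the hypoxia genes was not tested.

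Some chaperone, stress response and clock genes rose in pleural tumours, and most members of the stress and clock lists were not called. Hsph1, a cytosolic chaperone of the heat shock response, measured 74.6, 86.1 and 110.2 TPM (lowest, median, highest) in pleural and 54, 52.7, 55.2, 58 and 61.2 TPM in subcutaneous tumours (0.64, SE 0.10, adjusted p = 0.00106). Of 19 heat shock genes 10 rose (9.4% over all genes), with a median fold change of 0.15. This count depended on scaling and on single libraries: 2 rose after median-of-ratios scaling and 4 after quantile normalization, 5 without pleural replicate 2 or 4, 6 without pleural replicate 5 or subcutaneous replicate 1 or 4, and 3 without subcutaneous replicate 2. Hsp90b1, a chaperone of the endoplasmic reticulum, averaged 682±59.7 TPM and 505±41.7 TPM (0.43, adjusted p = 0.00106). Of 25 genes of the unfolded protein and integrated stress responses 9 rose, 5 without subcutaneous replicate 2 and 4 after median-of-ratios scaling. Tnfrsf10b, the death receptor for TRAIL and a p53 target, averaged 22.2±1.04 TPM and 17±0.682 TPM (0.36, adjusted p = 0.000303). Of 21 p53 targets 7 rose, and after median-of-ratios or quantile scaling 4 rose and 1 fell.

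Ciart, a repressor of the circadian clock, measured 3.75, 5.41 and 9.96 TPM (lowest, median, highest) in pleural and 1.53, 1.73, 2.31, 1.15 and 2.0 TPM in subcutaneous tumours (1.28, SE 0.22, adjusted p = 0.00259). Of 16 clock genes 5 rose (Ciart, Cry2, Hlf, Per1 and Dbp), and 3 rose without subcutaneous replicate 2. Over all genes 9.4% rose and 3.4% fell. Fkbp5, a target of the glucocorticoid receptor, averaged 67.7±6.72 TPM and 51.7±5.17 TPM (0.38, adjusted p = 0.00784), and 4 of 14 such targets rose, 2 without subcutaneous replicate 2. Immediate early factors went the other way: of 27, 5 fell (Junb, Dusp2, Ier5, Ier2 and Egr2) and Fosl2 rose, and 3 fell without subcutaneous replicate 3. The call of Fosl2 was lost without subcutaneous replicate 2, and 2 genes rose without pleural replicate 1 or 3. Tfrc, the transferrin receptor, averaged 91.8±19.3 TPM in pleural and 47.6±12.6 TPM in subcutaneous tumours (0.93, adjusted p = 0.00297), and subcutaneous replicate 1, at 69.8 TPM, lay within the pleural range.

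Human mesothelioma often loses CDKN2A and genes of the Hippo pathway, which restrains the coactivator Yap1. Cdkn2a measured 1.7, 1.91 and 2.52 TPM (lowest, median, highest) in pleural and 0.86, 0.537, 0.906, 0.841 and 0.812 TPM in subcutaneous tumours (0.75, SE 0.11, adjusted p = 0.000696). It was low in both sites, and the groups did not overlap. Yap1 itself averaged 34.1±1.35 TPM and 29.3±0.761 TPM (0.21, adjusted p = 0.00743), and the Hippo adaptor Sav1 73.1±2.93 TPM and 63.3±4.19 TPM (0.21, adjusted p = 0.00886). Of 19 tested suppressors and Hippo genes 5 rose (Cdkn2a, Yap1, Sav1, Cdkn2b and Setdb1). Bap1, a nuclear deubiquitinase, averaged 35.1±0.847 TPM and 33.2±2.44 TPM (adjusted p = 0.393) and Nf2, which encodes merlin, 47.6±2.88 TPM and 47.5±2.19 TPM (adjusted p = 0.991), and neither was called. Of 21 targets of Yap1 and the TEAD factors 4 rose (Ptpn14, Ccn2, Tead1 and Amotl1), beside 9.4% of all genes. None of these targets was called without subcutaneous replicate 2. Cadm4, an adhesion molecule, measured 2.46, 7.2 and 12.7 TPM in pleural and 1.26, 0.797, 1.32, 0.914 and 1.26 TPM in subcutaneous tumours (1.90, SE 0.25, adjusted p = 0.000373). Of 25 mitosis genes 4 rose (Top2a, Mki67, Bub1 and Ect2), beside the same 9.4%. The count was 2 without pleural replicate 2 or subcutaneous replicate 2 and 7 without peritoneal replicate 1.

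Genes of alternatively activated macrophages and mast cells fell in pleural tumours. Ptprc, the pan-leukocyte phosphatase CD45, averaged 52.6±13.5 TPM in pleural and 57.5±13.7 TPM in subcutaneous tumours (adjusted p = 0.69) and was not called. Of 12 pan-leukocyte genes Fcer1g was called lower (-0.44, adjusted p = 0.0409), a call that most fits without 1 library lost, and the count was 3 without pleural replicate 5 or peritoneal replicate 2 and 2 without peritoneal replicate 7. Of 18 macrophage genes 3 fell (Adgre1, Lgmn and Trem2), beside 3.4% of all genes. Adgre1, the macrophage marker F4/80, averaged 43.1±15.5 TPM in pleural and 70.2±15.4 TPM in subcutaneous tumours (-0.73, adjusted p = 0.0364). The count of 3 was 6 without pleural replicate 5, 5 after median-of-ratios scaling and 1 without peritoneal replicate 1, 3 or 4. It was 0 without pleural replicate 1, 3, 4 or 7 or subcutaneous replicate 2, 3, 4 or 5, and when the peritoneal tumours were left out of the fit. Of 22 genes of alternatively activated macrophages 11 fell, with a median fold change of -0.62, and 7 without pleural replicate 7 or subcutaneous replicate 2 or 5. Mrc1, the mannose receptor, averaged 20.9±6.22 TPM in pleural and 41.4±12.5 TPM in subcutaneous tumours (-0.94, adjusted p = 0.0136). Cd209f, a lectin of the Cd209 family, averaged 0.375±0.33 TPM and 7.61±2.83 TPM (-2.60, adjusted p = 6.52e-06). Vsig4, a complement receptor of tissue macrophages, went against the list, at 1.85, 3.46 and 4.71 TPM (lowest, median, highest) in pleural and 0.624, 1.1, 0.858, 1.01 and 1.17 TPM in subcutaneous tumours (1.09, SE 0.17, adjusted p = 0.00172). The second gene to rise, Arg1, lost its call in most fits without 1 library. Of 14 genes of serosal cavity macrophages 3 rose (Rarb, Gata6 and Cd5l), beside 9.4% of all genes. Rarb is also in the retinoid list and Gata6 in the mesothelium list, so neither is particular to macrophages. Of 12 mast cell genes 6 fell (Mcpt4, Tpsb2, Cma1, Tpsab1, Cpa3 and Mcpt2), with a median fold change of -0.68.

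Genes of T, natural killer and plasma cells were called in different directions. Of 25 T cell genes 3 fell (Thy1, which fibroblasts also express, Icos and Ccr7), beside 3.4% of all genes. Of 18 natural killer and cytotoxic genes 3 fell (Ncr1, Gzma and Klrb1c). Without subcutaneous replicate 1 the first count was 5, and without pleural replicate 5 the second was 5. At an unadjusted p of 0.05, 11 of the 18 natural killer genes were lower, beside 8.03% of all genes. Ncr1, the activating receptor NKp46, averaged 4.99±2.33 TPM in pleural and 11.9±2.26 TPM in subcutaneous tumours (-1.19, adjusted p = 0.00846). Cd8a (adjusted p = 0.801), Pdcd1 (0.534), Cd274 (0.704), Ctla4 (0.0751) and Foxp3 (0.118) were not called. Of 16 plasma cell genes 6 rose (Igkc, Jchain, Igha, Iglc1, Xbp1 and Iglc2), beside 9.4% of all genes, and Sdc1 fell. The list's median fold change was 1.22. The 6 became 3 without pleural replicate 2 or 4 or subcutaneous replicate 2 or 3. Igha, the constant chain of immunoglobulin A, averaged 43.2±20.5 TPM in pleural and 12.9±6.73 TPM in subcutaneous tumours (adjusted p = 0.00986). Of 31 interleukin receptors 5 fell (Il13ra2, Il1r2, Il11ra1, Il3ra and Crlf2), 3 without pleural replicate 4 and 2 without subcutaneous replicate 4 or 5. Il1r2, a decoy receptor of interleukin 1, averaged 1.89±0.467 TPM and 4.32±0.788 TPM (-0.89, adjusted p = 0.000795). Of 15 neutrophil genes 4 fell (Il1r2, Stfa2l1, Retnlg and Cxcr2), and 2 without pleural replicate 2 or 4 or subcutaneous replicate 2, 4 or 5. Trem1 rose, a call lost without pleural replicate 2 or 7 or subcutaneous replicate 1 or 2, and without pleural replicate 3 or 4 the list had 2 genes that rose.

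**Figure D4:**
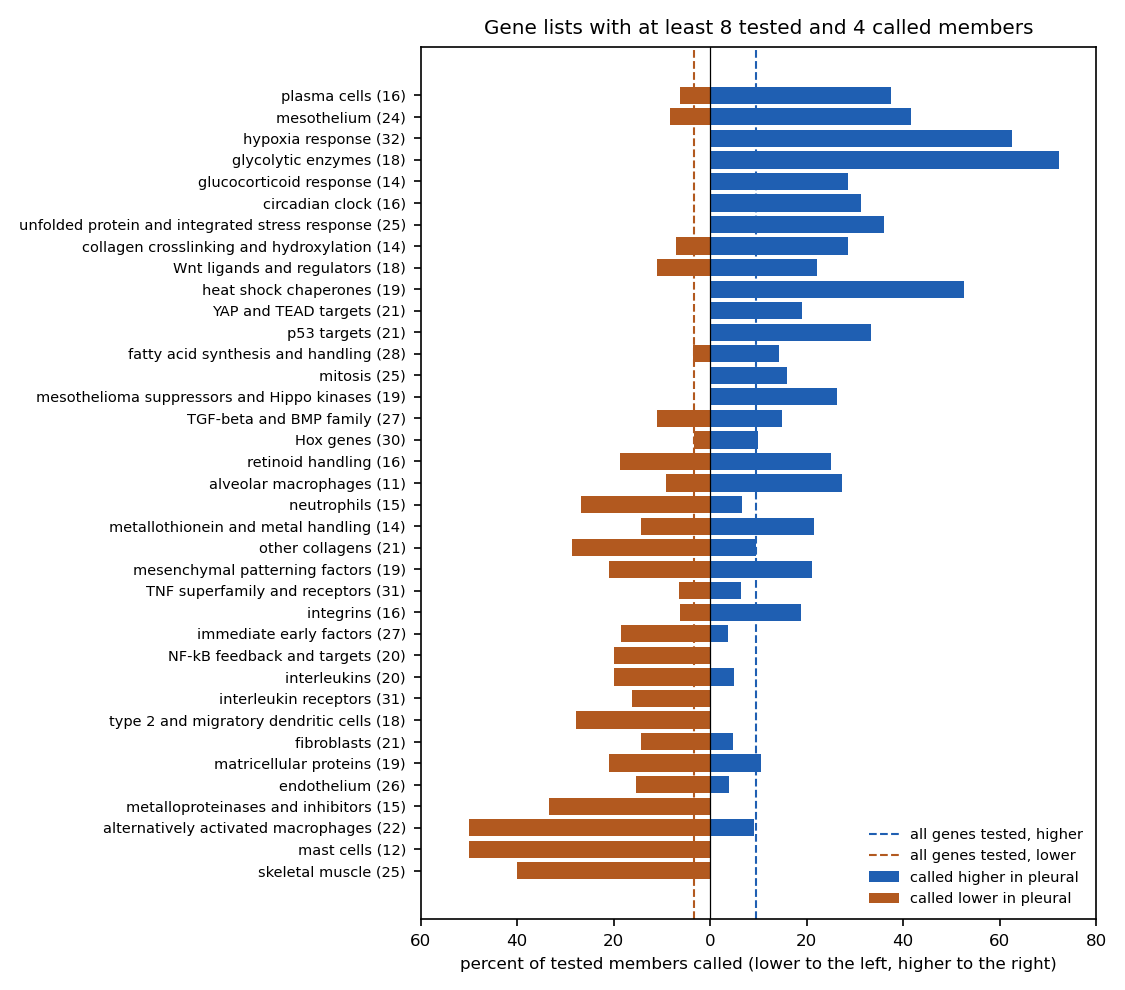
Percent of the tested members of each gene list that limma called higher (blue, to the right) or lower (brown, to the left) in pleural tumours, for lists with at least 8 tested and 4 called members, the number tested in brackets. Dashed lines mark the percents over all 15054 genes (9.4% higher and 3.4% lower); glycolytic enzymes (13 of 18) reach furthest to the right, and alternatively activated macrophages (11 of 22) and mast cells (6 of 12) furthest to the left.

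Several pathways gave no call with limma. Over all genes tested 30.8% passed an unadjusted p of 0.05, 22.8% higher and 8.03% lower in pleural tumours. Among 24 type I interferon response genes 1 passed an unadjusted p of 0.05, as did 2 of 16 interferon gamma induced GTPases, 4 of 20 genes of MHC class I presentation and 0 of 12 of MHC class II. Among 32 nuclear genes of the respiratory chain 5 passed it, all lower in pleural tumours, and among 15 transcripts of the mitochondrial genome 0. Of 27 DNA replication genes 4 passed it, of 15 smooth muscle and pericyte genes 4, of 9 laminins and nidogens 4 and of 12 small proteoglycans 6. Of 11 regulatory T cell genes 4 passed it, all lower, and of 11 B cell genes 5, all higher, with a median fold change of 0.79 for the B cell list. Other fits called some of these: without pleural replicates 3 and 5, 5 respiratory chain genes, 4 small proteoglycans, 3 laminins and nidogens and 3 smooth muscle genes fell, and after median-of-ratios scaling 5 respiratory chain genes and 2 laminins fell. Skeletal muscle genes were called lower in 10 of 25 cases, beside 3.4% of all genes, with a median fold change of -1.43. That count depended on single libraries: it was 16 without pleural replicate 5, 23 without pleural replicates 3 and 5, 5 without pleural replicate 2, 6 without pleural replicate 4 and 1 without subcutaneous replicate 2.

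Sorted cancer cells from the same sites, gated as CD45-negative and mCherry-positive, were fitted separately, and levels are not compared between the tables. There 203 of 12357 genes (1.64%) were called between pleural and subcutaneous cells, and 106 without subcutaneous replicates 1 and 2. By the labels the sorted pleural and subcutaneous libraries came from mice that also gave whole-tumour libraries, so the fits are not independent. Of the 1927 genes called in whole tumours 1617 were tested in sorted cells, and 84 were called there with the same sign. Lrrc15, Sema7a, Thy1 and the collagens Col23a1 and Col12a1 were among them. Lrrc15 averaged 0.0499±0.0327 TPM in sorted pleural and 3.67±1.49 TPM in sorted subcutaneous cells (SD, n = 5 each; -2.10, adjusted p = 4.35e-06). Sema7a averaged 6.52±1.12 TPM and 22.2±6.42 TPM (-1.60, adjusted p = 5.77e-05), Col23a1 0.0753±0.0661 TPM and 4.31±2.26 TPM (-2.22, adjusted p = 6.54e-06) and Col12a1 27.1±5.3 TPM and 58.6±15.9 TPM (-1.07, adjusted p = 0.00297). Thy1 averaged 2.74±0.61 TPM in sorted pleural and 45.8±19.3 TPM in sorted subcutaneous cells (-3.57, adjusted p = 2.83e-05). The sorted subcutaneous libraries were not pure: Ptprc, which the gate should remove, ranged from 0.228 to 12.9 TPM there and from 0.291 to 2.05 TPM in the pleural ones, and replicates 1 and 2 held leukocyte RNA. Of 17 fibroblast genes 7 were called lower in sorted pleural cells (Cd248, Dpt, Fndc1, Lrrc15, Pdgfrb, Pi16 and Thy1). Without subcutaneous replicates 1 and 2 the fibroblast count was 4. Of 15 endothelial genes 4 were called lower (Emcn, Eng, Flt1 and Plvap), and 0 without those replicates. How far host cells contributed to the sorted values was not tested. In sorted cells 4 of 30 hypoxia genes were called higher (Angptl4, Bnip3l, Car9 and Pgk1) and 2 lower (Lox and Loxl2), and without subcutaneous replicates 1 and 2 these counts were 1 and 2. Of 18 glycolytic enzymes 4 were called higher (Aldoa, Eno1, Gpi1 and Pgk1) and 1 lower (Slc16a3), and without those replicates none was called in either direction. Among 10 mesothelium genes tested in sorted cells none was called higher and 2 were called lower (Krt8 and Sulf1). Without those replicates 1 mesothelium gene was called lower. Of the 104 named genes that both fits tested, 28 were called in sorted cells, and 23 of the 28 also without subcutaneous replicates 1 and 2. Car9 and the methyltransferase Inmt were called higher there (for Inmt, 2.61, adjusted p = 6.45e-05). Car9 averaged 109±28.1 TPM in pleural and 23±6.14 TPM in subcutaneous cells (2.20, adjusted p = 5.67e-05). Several other genes that rose in whole pleural tumours were not called: Gata4 had an adjusted p of 0.342, Stra6 of 0.0902, Plod2 of 0.0859 and Cadm4 of 0.212 in sorted cells. Wt1, Cdkn2a, Gdf6 and Bmper were not tested in the sorted cells.

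**Figure D5:**
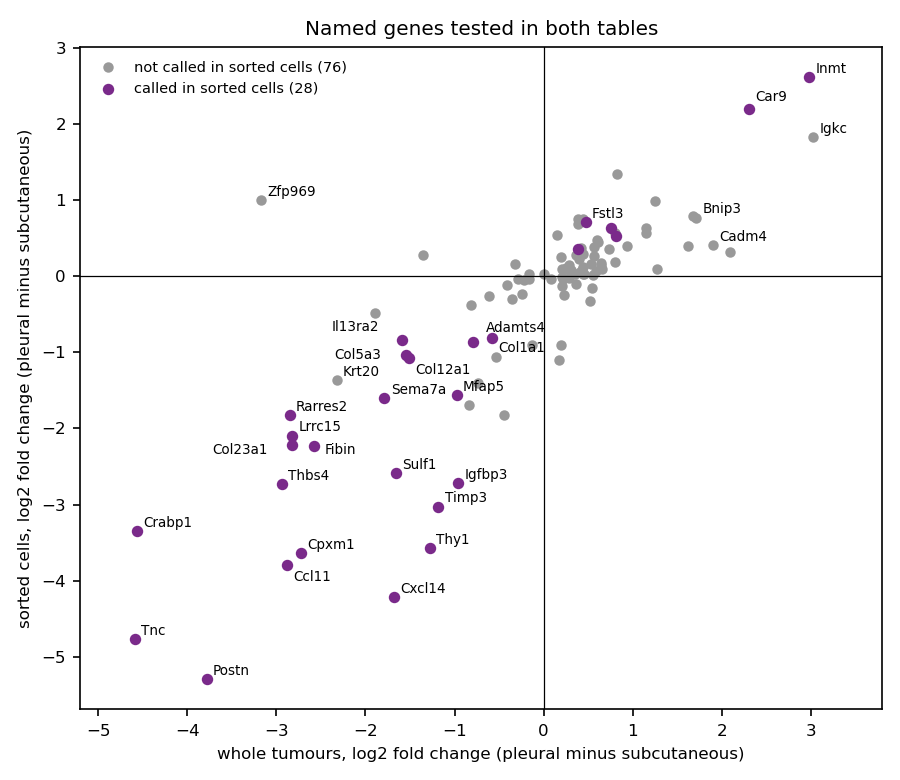
Log2 fold change (pleural minus subcutaneous, on log2(TPM + 1)) in sorted cancer cells against that in whole tumours, for the 104 named genes tested in both tables, with the 28 genes called in sorted cells in purple. The called genes lie mostly at the lower left, where matrix genes are lower in both kinds of pleural sample, and Car9 and Inmt lie at the upper right.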

How the data were processed

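Values in TPM (transcript abundance scaled to the same total in every library) per gene symbol were deposited by the authors in 2 tables, for whole tumours and for sorted cells. They were made with kallisto on build GRCm39 per the submitters' processing notes, from 50 bp single-end reads per the labels. The sources used here do not give the kallisto version, the annotation or the read totals, so the depth and counting error of each value are unknown.

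Each value was taken as log2(TPM + 1), and a gene was tested if 5 or more libraries of its table held it at 1 TPM or above. A gene that stayed below 1 TPM at a site could pass this filter only through the other sites. The 16 whole-tumour libraries were fitted together by site with limma 3.58.1 (R 4.3.3, empirical Bayes with a mean-variance trend), with Benjamini-Hochberg adjustment over every gene tested. A gene was called at an adjusted p below 0.05. The 15 sorted libraries were fitted separately. The procedure was tested on simulated data.

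Named genes were the 15 largest changes in each direction among called genes with no overlap between the groups and a higher mean of at least 5 TPM; up to 3 called members of each of 91 gene lists; and a fixed set. Predicted genes, antibody segments and Mup genes were left out of the first kind. Genes named outside this rule, the promoter stretches and the gene families in the closing section were chosen after their values were seen. The comparison, the lists and the rule were chosen with earlier results of these data known. The alternatives were another pseudocount, other filters, scalings and fits, and leaving out libraries with the tested genes kept the same. The filter over only the libraries kept was added after seeing the data.

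Promoter windows came from RefSeq (GRCm38.p6) and were matched by gene symbol. No coordinate was converted between builds.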

Additional observations from a re-analysis of the deposited data

Results flagged for a closer look

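Single libraries far from the rest of their group were looked for among the named genes, in the 6 pleural and the 5 subcutaneous libraries of each. With normally distributed values about 1 in 20 groups would be picked out in this way by chance. The rate for TPM values was not tested, and none of the values below was given an explanation. Muscle genes and genes high in the library with cardiac RNA formed the largest set. In pleural replicate 5 Acta1 measured 248 TPM (next highest 16.9), Tnnc2 79.0 TPM (0.462), Myh4 5.35 TPM (0 in the others) and Thbs4 13.2 TPM (4.95). In pleural replicate 3 Clu, clusterin, measured 500.4 TPM (60.9), Cp, ceruloplasmin, 78.1 TPM (54.9), Postn 75.1 TPM (21.6), Frzb 65.9 TPM (6.32), Cthrc1 15.8 TPM (5.00), Adamts4 10.2 TPM (7.26) and Ahsg 8.55 TPM (3.13). The subcutaneous tumour with the most Pvalb, a parvalbumin of fast muscle, was replicate 2 at 29.1 TPM (9.28).

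Other high values stood alone. In pleural replicate 5 Tgfb1 measured 77.5 TPM (62.4), Gzmd 3.29 TPM (1.02), Gzmf 2.15 TPM (0.775) and Irx2 0.521 TPM (0.113). Rarres2 measured 94.1 TPM (50.3), Iglc2 25.8 TPM (9.93) and Cnfn 0.687 TPM (0.251) in pleural replicate 2, and Krt20 4.13 TPM (1.57) in pleural replicate 7. Tfrc measured 69.8 TPM (44.0) and Upk3b 0.00856 TPM (0) in subcutaneous replicate 1, S100a4 3073 TPM (2508) in subcutaneous replicate 2 and Plk2 57.0 TPM (47.3) in subcutaneous replicate 4. Gm7329, a predicted gene, measured 2.83 TPM in pleural replicate 1 (0 in the next) and 5.81 TPM in subcutaneous replicate 3 (0.976).

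Some libraries were low instead. In subcutaneous replicate 1 Ftl1 measured 3008 TPM (next lowest 3501), Sdc1 73.9 TPM (91.5) and Bdkrb2 1.12 TPM (1.90). In subcutaneous replicate 2 Top2a measured 187 TPM (209.8), Pdcd1 4.78 TPM (9.62) and Cdkn2a 0.537 TPM (0.812).

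Transcripts outside the tested comparison were present in single pleural libraries, above the highest subcutaneous value. In pleural replicate 3 the cardiac transcripts Nppa measured 3376 TPM (subcutaneous maximum 16.3), Tnnt2 693 TPM (3.08), Myh6 384 TPM (1.52), Myl7 356 TPM (2.31), Actc1 236 TPM (1.55) and Myh7 193 TPM (0.558). The predicted genes Gm43107 and Gm43521 both measured 452 TPM in pleural replicate 7 and 0 in all subcutaneous libraries, with identical values.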

How the results depend on the processing

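No called named gene changed sign under any alternative run, and rescaling without mitochondrial, haemoglobin and antibody genes moved no list count by over 1.5 times. The counts moved more than the directions. Leaving out 1 library at a time gave 785 to 2237 called genes (525 to 1562 higher, 260 to 675 lower), 55 to 96 higher and 80 to 138 lower at 2-fold, and 0 to 33 called between pleural and peritoneal tumours. With the filter over the libraries kept, the range was 748 to 2226 (1049 without pleural replicate 2 and 1272 without pleural replicate 4). A pseudocount of 0.1 gave 154 higher at 2-fold, and no filter gave 1136 called, 765 higher and 50 higher at 2-fold. A minimum of 5 TPM gave 53 higher and 59 lower at 2-fold. Scaling by median of ratios gave 727 higher and 856 lower, quantile normalization 674 higher, library weights (arrayWeights) 804 lower, and leaving out pleural replicates 3 and 5 gave 179 lower at 2-fold. An adjusted p below 0.01 left 401 called (263 higher, 138 lower), 32 higher and 70 lower at 2-fold. In sorted cells, leaving out subcutaneous replicates 1 and 2 left 106 called, or 70 with the filter over the libraries kept. The cause of these shifts was not tested.

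Pleural and subcutaneous replicates share numbers but are labelled as different mice. Deviations from the group means of the 5 same-numbered pairs correlated at -0.222 to 0.256, 2 of them over 0.1, and 1 pleural library correlated best with its own number, so the numbers were not taken to pair the samples. With the replicate block 849 genes were called, 558 higher and 291 lower.

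The depth of these libraries is unknown, so genes near 1 TPM carry a counting error that cannot be given. Sites were not sampled at more than 1 time, and host and cancer cells were not separated in whole tumours.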

Other observations

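Several gene families, some of whose members are in the lists above, also differed, and these were chosen after their values were seen. Of 9 granzymes tested, the serine proteases of killer cells, 5 were called lower in pleural tumours, beside 3.4% of all genes. That number fell to 2 when subcutaneous replicate 2 was left out, and to 3 when subcutaneous replicate 3 or pleural replicate 2, 3, 4 or 7 was. Gzma averaged 15.6±7.23 TPM in pleural and 31.7±4.58 TPM in subcutaneous tumours (-1.09, adjusted p = 0.0217), and Gzmf 0.73±0.744 TPM and 9.35±10.7 TPM (-2.10, adjusted p = 0.0137), both called in every fit without 1 library. Gzmg (adjusted p = 0.0271) lost its call without subcutaneous replicate 2 (adjusted p = 0.0856), and Gzmd and Gzme lost theirs in many fits. Gzmb averaged 17.9±7.53 TPM and 27.8±8.33 TPM and was not called (adjusted p = 0.0888), but was called lower without pleural replicate 5 (adjusted p = 0.0293).

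Both receptors for kinins, the peptides that drive pain and vessel leak, were lower in pleural tumours. Bdkrb1, the inducible receptor, measured 0.24, 0.366 and 0.582 TPM (lowest, median, highest) in pleural and 2.18, 3.98, 2.86, 4.37 and 3.61 TPM in subcutaneous replicates 1 to 5 (-1.64, SE 0.15, adjusted p = 8.44e-06). Bdkrb2, the constitutive receptor, averaged 0.483±0.0939 TPM and 1.85±0.432 TPM (-0.93, adjusted p = 0.000139). The groups overlapped for neither gene. Of 12 S100 calcium-binding proteins tested 6 were called, all lower, beside 3.4% of all genes. Without subcutaneous replicate 2 that count was 1. Antibody transcripts together made up 0.0338% to 0.21% of TPM in pleural tumours and 0.0098% to 0.0225% in subcutaneous ones.

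Of the 8 genes called between pleural and peritoneal tumours (Bcl6, Ccl11, Ccn2, Cnfn, Dynlt2a1, F2rl3, Gm7329 and Plk2), 3 were also called between pleural and subcutaneous tumours, a comparison that shares the pleural libraries. F2rl3, the thrombin receptor PAR4, averaged 0.396±0.151 TPM in pleural, 1.05±0.205 TPM in subcutaneous and 1.31 TPM in peritoneal tumours. Ccn2, a matricellular growth factor, averaged 137±27.7 TPM, 90.8±23.6 TPM and 73.1 TPM in the same order, and its call against subcutaneous tumours was lost without subcutaneous replicate 2.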
